A study of Homo sapiens with 8 samples.

Results

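Integrins, cadherins and protocadherins are the receptors by which cells hold to the extracellular matrix and to each other. A set of 40 genes of these families was followed here in H460 cells, a line derived from human NSCLC, and in the cancer stem cell and cisplatin-resistant populations isolated from them. The genes were taken by symbol, through the accession of each probe, and comprised 13 integrin alpha chains, 7 integrin beta chains, the integrin-like gene ITGBL1, 12 cadherins and 7 protocadherins. All 40 of them, of 32642 gene names on the array, were found, with 58 probes. Of these genes, 26 gave a signal well above background and could be compared, of 20317 names tested in all.

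On 8 dual-color arrays that cover the whole human genome, the parental H460 RNA was hybridized against that of 2 populations, the CSCs (H460C) and the cisplatin-resistant cells (H460R). H460 and H460R cells were kept in RPMI with foetal bovine serum, and H460R cells had received cisplatin at 0.5 μg/mL for 72 h before they were returned to medium without the drug. H460C cells were not kept in serum. They were grown under non-adherent conditions in DMEM/F12 with BSA, N2 supplement, EGF and FGF-b, so that attachment, serum and growth factors all differ between H460C and the other populations and cannot be told apart. Each population had 2 RNA samples, each measured with both dye orientations, and a single H460 RNA served all arrays. All values below are log2 ratios over H460, 1 per RNA sample, unless a difference between H460C and H460R is named. Nothing in the sources used here says that the samples came from separate cultures, so the tests measure the spread between these samples, which may be technical.

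The arrays showed between 25868 and 28499 probes well above background in the channel of the studied cells. The difference between the H460R samples repeated between dye orientations (r = 0.264 across 24373 probes, which are not independent replicates), and that between the H460C samples did not (r = -0.0105). For this reason H460C is treated as 1 sample in the descriptions, with both measurements shown and no SD, although the tests took 2. H460R values are given as mean ± SD (n = 2). H460C and H460R arrays were on separate slides, and an effect of the slide cannot be told apart from the populations. The ratios come from whole cultures, in which fewer cells expressing a gene and less RNA per cell cannot be told apart. Of the epithelial markers KRT8, KRT18, KRT19 and EPCAM, 4 of 4 were measured. PTPRC, TEK and PDGFRA, markers of leukocytes, endothelium and fibroblasts, were not well above background in any channel. Other markers of these cell types (CD14, CD3E, PECAM1, KDR, VWF, DCN, LUM and PDGFRB) passed the filter in at least one population or in H460.

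Integrins work as pairs of an alpha and a beta chain. The pair sets the ligand (collagens, laminins, or proteins with an RGD motif such as fibronectin and vitronectin), and talin, kindlins and other adaptors link the beta chain to actin. Classical and type II cadherins bind their like on the next cell and are anchored by catenins, and protocadherins are related proteins best known from the nervous system. In lung epithelium, laminin-binding integrins hold cells to the basement membrane, and loss of attachment normally triggers death of epithelial cells.

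To show the regulatory sequence of members that differed most between the populations, the stretch before the gene start is shown for the members that differed by over 2-fold between H460C and H460R and had a single promoter in the RefSeq table of GRCh38.p14. That table held 26 of the 40 members, 18 of them measured, and 5 genes met both conditions. Capitals mark any match, on either strand, to the GC box GGGCGG, the E-box CACCTG, the AP-1 site TGANTCA, the TATA box as TATAAA, or the CCAAT box, spelled as its name. Each run ends at the base before the gene start and has 250 bases. The first ones belong to members that were lower in H460C than in H460R.
ITGA1: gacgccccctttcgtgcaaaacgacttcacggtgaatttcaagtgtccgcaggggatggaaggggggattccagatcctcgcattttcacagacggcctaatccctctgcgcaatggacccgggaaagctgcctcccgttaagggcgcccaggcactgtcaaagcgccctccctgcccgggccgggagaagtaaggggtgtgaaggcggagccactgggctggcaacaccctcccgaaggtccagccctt
ITGBL1: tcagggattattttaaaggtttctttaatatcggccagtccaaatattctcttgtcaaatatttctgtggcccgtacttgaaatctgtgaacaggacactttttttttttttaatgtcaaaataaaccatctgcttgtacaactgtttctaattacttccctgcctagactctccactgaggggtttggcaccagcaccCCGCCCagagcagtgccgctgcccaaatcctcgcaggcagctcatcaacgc
PCDH7: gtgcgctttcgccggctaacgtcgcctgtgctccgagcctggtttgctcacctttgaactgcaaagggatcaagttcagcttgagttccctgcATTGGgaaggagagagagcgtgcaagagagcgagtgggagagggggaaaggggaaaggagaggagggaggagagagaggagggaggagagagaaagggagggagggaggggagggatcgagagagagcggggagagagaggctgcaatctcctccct
The others belong to members that were higher in H460C than in H460R.
ITGA2: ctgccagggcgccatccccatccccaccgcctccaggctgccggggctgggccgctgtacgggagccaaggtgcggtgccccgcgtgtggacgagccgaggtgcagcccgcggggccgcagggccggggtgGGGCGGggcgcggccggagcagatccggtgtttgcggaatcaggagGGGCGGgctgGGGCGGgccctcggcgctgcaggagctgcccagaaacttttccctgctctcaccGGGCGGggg
PCDH17: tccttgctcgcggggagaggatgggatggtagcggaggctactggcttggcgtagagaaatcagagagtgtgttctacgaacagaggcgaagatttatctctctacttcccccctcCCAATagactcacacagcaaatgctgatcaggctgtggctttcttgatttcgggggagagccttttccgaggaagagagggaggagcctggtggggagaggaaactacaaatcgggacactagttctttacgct
All 5 lie on the plus strand, at chr5:52787666-52787915 (ITGA1), chr13:101452425-101452674 (ITGBL1), chr4:30720119-30720368 (PCDH7), chr5:52989102-52989351 (ITGA2) and chr13:57631494-57631743 (PCDH17). GC boxes were found in 2 of the 5, with 4 matches before ITGA2 and 1 before ITGBL1, compared to 42.6% of the 35116 promoters of the table over the same length. A CCAAT box was found before PCDH7 and PCDH17, and 32% of all promoters held one. The E-box, the AP-1 site and the TATA box had no match in these 5 windows and were present in 17.5%, 6.57% and 10.7% of all promoters. The ITGA1 window held none of the 5 motifs. ITGA1 and ITGA2 are neighbours on chromosome 5, with starts 201 kb apart, and their mRNAs differed in opposite directions between the populations, as described below.

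The Rank Products method, which ranks all probes within each sample and tests the product of the ranks, called 3 members lower in H460C than in H460 at an FDR below 0.05. They were the cadherins CDH11, CDH13 and CDH18. No member was called higher. At an unadjusted p below 0.05, Rank Products gave 4 members higher and 11 lower in H460C, where 1926 and 1967 of all 20317 genes were. After adjustment limma gave 7 higher and 16 lower, a test that called 71% of all genes in H460C. By Rank Products at an FDR below 0.05, 0.502% of all genes were called lower and 0.556% higher in H460C. In H460R none of the 26 members was called in either direction, where 0.492% of all genes were called higher and 0.477% lower. At an unadjusted p below 0.05, Rank Products gave 5 members higher and 5 lower in H460R, where 1901 and 1870 of all 20317 genes were. After adjustment limma gave 12 higher and 8 lower, and it called 68.9% of all genes.

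Changes past 2-fold were counted as a description. In H460C, 2 members were above 2-fold (ITGA2 and PCDH17) and 9 were below, compared to 4.98% and 3.36% of all genes. PCDH17 passed the filter on dim probes only through H460C, where it was high. In H460R, 2 were above (ITGA7 and ITGBL1) and 1 was below (ITGB4), compared to 3.54% and 1.43%. Between the populations, 3 members were over 2-fold higher in H460C (ITGA2, ITGB4 and PCDH17) and 10 were over 2-fold lower, compared to 3.33% and 4.71% of all genes. Tested with limma on the 4 ratios, 6 members were higher and 15 lower in H460C than in H460R, and 5 did not pass (adjusted p 0.05). This test called 28.0% of all genes higher and 27.9% lower, so that a call by itself says little, and the size of the difference is given with each. With a minimum log2 difference of 1 in the test, 1 member was higher (ITGB4) and 7 were lower, and 3.39% of all genes passed in either direction.

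The integrin chains and the cadherins differed in how they were placed against H460. The 15 measured integrin chains had a median of -0.19 in H460C and 0.34 in H460R, and the 10 measured cadherins and protocadherins had a median of -0.87 in H460C and -0.14 in H460R. Over all genes the medians were -0.0011 and 0.01. The cadherins alone (6 genes) had a median of -1.96 in H460C and -0.28 in H460R, and the 4 protocadherins -0.30 and -0.07. Both comparisons share the H460 RNA. Genes of a family are not replicates, and the difference between the families was not tested. The medians describe only the listed genes, which were chosen with earlier results of these data known. E-cadherin (CDH1) is not among the listed cadherins.

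Among the alpha chains that pair with ITGB1 to bind laminin, ITGA7 had the widest gap between the populations of all 26 members. ITGA7, best known from muscle, measured -1.62 and -1.66 in H460C and 1.49 and 1.58 in H460R (mean 1.53 ± 0.06 SD, n = 2). The H460C values lay below those of H460 and the H460R values above them, without overlap. The difference was -3.17 (SE 0.06), or 9.03-fold lower in H460C than in H460R, with an adjusted p of 6.29e-05 by limma. Neither comparison with H460 passed Rank Products (FDR 0.0825 in H460C and 0.0819 in H460R). ITGA3, a laminin receptor of epithelia, gave -1.28 and -1.71 in H460C and 0.47 and 0.21 in H460R, and was 3.56-fold lower in H460C than in H460R (adjusted p 0.000697, limma). Its H460R ratio changed sign with the dye, at 1.00 and 0.81 with H460R in Cy3 and -0.06 and -0.40 in Cy5. ITGA6, which joins ITGB1 or ITGB4 in laminin receptors, gave -0.49 and -0.39 in H460C and 0.40 in both H460R samples. The second H460C value rests on 1 array because the spot of the other was marked as an outlier. The ITGA6 ratio in H460R depended on the dye, at 0.71 and 0.69 with H460R in Cy3 and 0.09 and 0.10 in Cy5. H460C and H460R differed by -0.84 (SE 0.06, adjusted p 0.000401, limma).

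The collagen-binding chains did not move as a group. ITGA1 gave -0.63 and -0.996 in H460C and 0.59 and 0.73 in H460R, a difference of -1.47 (SE 0.13, adjusted p 0.0007, limma). ITGA2 gave 1.40 and 1.60 in H460C and 0.49 and 0.33 in H460R, a difference of 1.09 (SE 0.10, adjusted p 0.00066, limma). Thus ITGA1 was lower and ITGA2 higher in H460C than in H460R. The H460C measurements and the H460R samples did not overlap for either gene. The other probes of ITGA2 were dimmer and gave smaller means in H460C, 0.73 and 0.39, and the dimmest of these did not pass between the populations (adjusted p 0.0586, limma). ITGA11, another collagen receptor chain, gave 0.26 and 0.55 in H460C and 0.13 and 0.19 in H460R and did not pass (adjusted p 0.104, limma).

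Among the chains for RGD proteins, ITGAV and ITGA5 were placed in opposite order. ITGAV, the common alpha chain of the vitronectin receptors, gave -0.52 in both H460C samples and 1.03 and 0.95 in H460R, a difference of -1.51 (SE 0.06, adjusted p 9.56e-05, limma). A second, dimmer ITGAV probe gave -0.06 and 0.06 in H460C and 0.40 and 0.49 in H460R, so that its ratio to H460 in H460C had no clear sign. ITGA5, the alpha chain of the main fibronectin receptor, gave 0.64 and 0.72 in H460C and -0.26 and -0.15 in H460R, a difference of 0.88 (SE 0.07, adjusted p 0.000419, limma). Its H460C ratio depended on the dye, at 1.25 and 1.33 in Cy3 and 0.04 and 0.10 in Cy5. ITGAE, the partner of ITGB7 on lymphocytes within epithelia, gave 0.84 and 0.81 in H460C and 0.39 and 0.58 in H460R (difference 0.34, adjusted p 0.0183, limma), and this call was lost on the Cy5 arrays alone and with median centring (adjusted p 0.231 and 0.189). ITGA9, a receptor chain for tenascin and other ligands, stayed between -0.04 and 0.16 in all 4 samples (adjusted p 0.196, limma).

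The beta chains included ITGB4, which had the highest difference of the 26 members. ITGB4, whose long cytoplasmic tail anchors hemidesmosomes to keratin filaments, gave 0.76 and 0.89 in H460C and -1.14 in both H460R samples. It lay above H460 in both H460C measurements and below it in both H460R samples. It was 3.91-fold higher in H460C than in H460R (difference 1.97, SE 0.07, adjusted p 7.52e-05, limma). Its decrease in H460R did not pass Rank Products (FDR 0.0879). ITGB5, which pairs with ITGAV to bind vitronectin, gave -1.88 and -1.96 in H460C and 0.04 and -0.16 in H460R. The H460C ratio was 3.79-fold below H460 and just missed the Rank Products threshold (FDR 0.0522, with a range of 0.0331 to 0.129 over the alternatives). Between the populations ITGB5 differed by -1.86 (SE 0.08, adjusted p 0.00012, limma).

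ITGB1, the beta chain shared by most matrix receptors, gave -0.72 and -0.56 in H460C and 0.37 and 0.29 in H460R. The probe read was saturated on 2 of 4 H460C arrays, on 2 of 4 H460R arrays and in H460 on 4 of 8 arrays. Its difference between the populations was -0.96 and was smaller in the authors' ratios (-0.60). The other 2 probes of ITGB1 were saturated on no array, had the same signs and differed by -1.09 each. ITGB8, which pairs with ITGAV and activates latent TGF-beta, gave -0.05 and -0.08 in H460C and 0.58 and 0.46 in H460R (difference -0.59, adjusted p 0.00138, limma). A dimmer ITGB8 probe gave 0.19 and 0.26 in H460C and differed by -0.28 (adjusted p 0.0157, limma), and the dimmest did not pass (difference -0.05, adjusted p 0.593, limma). ITGB2, the beta chain of leukocyte integrins, gave -0.21 and -0.16 in H460C and -0.51 and -0.57 in H460R, and was well above background on 2 of 4 H460R arrays (difference 0.35, adjusted p 0.00509, limma). The ITGB2 difference no longer passed with median centring (0.44, adjusted p 0.0669) and was 1.42 with the Feature Extraction log ratio.

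ITGBL1, a secreted protein with repeats like those in the stalk of integrin beta chains, resembled ITGA7 in its values. It gave -1.48 and -1.69 in H460C and 1.41 and 1.33 in H460R (mean 1.37 ± 0.06 SD, n = 2). It was 7.75-fold lower in H460C than in H460R (difference -2.95, SE 0.09, adjusted p 6.88e-05, limma). Neither ratio to H460 passed Rank Products (FDR 0.0913 in H460C and 0.119 in H460R).

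**Figure D1:**
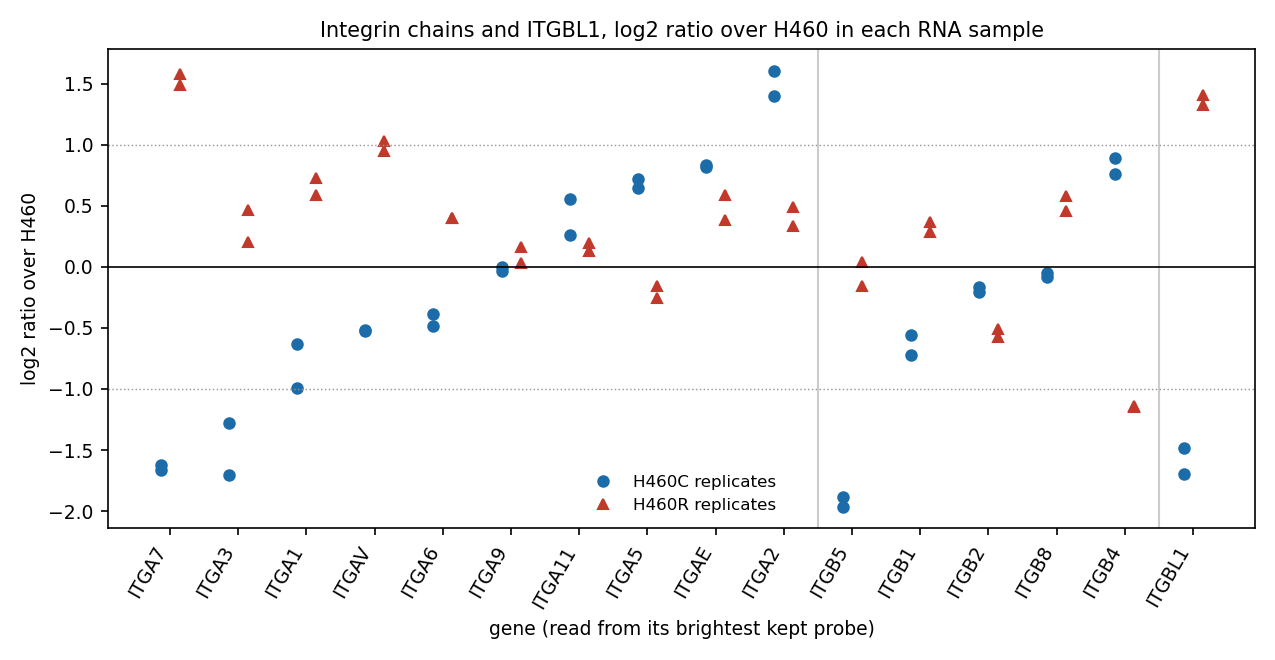
Log2 ratios over H460 (vertical axis) of the measured integrin chains and ITGBL1, with 1 point per RNA sample, circles for H460C and triangles for H460R, and dotted lines at 2-fold. ITGA7 and ITGBL1 lie between -1.69 and -1.48 in H460C and between 1.33 and 1.58 in H460R, and ITGB4 has the opposite order.

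The cadherins held the lowest ratios of the set. CDH11, a type II cadherin of mesenchymal and bone-forming cells, gave -2.89 and -2.95 in H460C, or 7.57-fold below H460 (Rank Products FDR 0.00734). In H460R it gave -0.14 and 0.06 (FDR 1), the first from 1 array because the spot of the other was marked as an outlier. H460C lay far below H460R for this gene, with a difference of -2.88 (SE 0.09, adjusted p 6.76e-05, limma). CDH13, a cadherin held by a lipid anchor and without a cytoplasmic tail, gave -2.38 in both H460C samples, 5.21-fold below H460 (FDR 0.0191, Rank Products). It gave -0.55 and -0.49 in H460R (FDR 0.524, Rank Products), above all H460C values, with a difference of -1.86 (SE 0.06, adjusted p 6.91e-05, limma).

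CDH18, a type II cadherin of the nervous system, was the third called member (FDR 0.0118, Rank Products), at 6.72-fold below H460 in H460C. Its H460C values were the most unequal of the set, at -2.09 and -3.41. The first rests on the array with H460C in Cy5, since the spot of the other was marked as an outlier, and the gene was well above background on 3 of 4 H460C arrays. In the authors' processed ratios the H460C samples were nearly equal, at -3.14 and -3.09. In H460R it gave -0.84 and -0.95 (FDR 0.196, Rank Products). H460C and H460R differed by -1.86 (SE 0.42, adjusted p 0.0142, limma), and the adjusted p was 0.106 without H460R replicate 1 and 0.0953 without H460R replicate 2, the highest of the alternatives without a minimum difference being 0.106. CDH10, another type II cadherin of the nervous system, gave -1.44 and -1.62 in H460C and -0.80 and -0.66 in H460R. Neither CDH10 ratio passed Rank Products (FDR 0.0992 and 0.313), and the populations differed by -0.80 (SE 0.09, adjusted p 0.0013, limma).

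CDH2, the N-cadherin of mesenchymal cells, was near background. It gave 0.10 and 0.25 in H460C and -0.02 and 0.14 in H460R. The H460 channel was not well above background on any array, and the mean of H460C was at least 1.12-fold above H460. H460R was well above background on 2 of 4 arrays and its samples lay on both sides of H460, so no fold is given for it. CDH2 passed the filter only through H460C. CDH24, a type II cadherin that binds catenins, gave 0.16 and -0.43 in H460C and 0.72 and 0.43 in H460R, the second H460C value from 1 array. Its ratio turned with the dye, at 1.74 and 1.53 with H460R in Cy3 and -0.30 and -0.67 in Cy5, and the difference between the populations (-0.71, SE 0.21, adjusted p 0.0359, limma) became 0.040 on the Cy5 arrays alone (adjusted p 0.852), with adjusted p from 0.000654 to 0.852 over the alternatives without a minimum difference.

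LUM, a fibroblast marker, was also called lower in H460C, at -3.23 (FDR 0.00498, Rank Products), and had -1.01 in H460R. DCN, another fibroblast marker, gave -0.38 (from 1 array) and -2.36 in H460C and -0.49 and -0.72 in H460R, and was well above background on 1 of 4 H460C arrays. PDGFRB gave 0.13 and 0.27 in H460C and -0.45 in both H460R samples, and PDGFRA was not well above background in any channel. Thus LUM and DCN were below H460 in H460C, as the called cadherins were, and PDGFRB was not. The part of these markers in the result was not tested.

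Of the protocadherins, PCDH7 and PCDH17 differed between the populations in opposite directions. PCDH7 gave -1.29 and -1.33 in H460C and 0.87 and 1.09 in H460R (mean 0.98 ± 0.16 SD, n = 2). H460C was below and H460R above H460, and the difference was -2.29 (SE 0.09), or 4.90-fold (adjusted p 9.19e-05, limma). A second PCDH7 probe gave -0.96 and -1.12 in H460C and 0.79 and 0.84 in H460R. PCDH17 gave 1.28 and 1.68 in H460C and 0.04 and 0.16 in H460R, and was 2.61-fold higher in H460C than in H460R (SE 0.14 on the log2 scale, adjusted p 0.000962, limma). The H460 channel of PCDH17 was well above background on all 4 H460C arrays and on 2 of 4 H460R arrays. H460R itself was above it on 3 of 4 arrays. The gene thus entered the comparison only through H460C, the population where it was high, and its call is no independent support. A second PCDH17 probe was not well above background in any channel. PCDH1, found in airway epithelium, gave -0.15 and -0.18 in H460C and -0.28 and -0.22 in H460R, and PCDH9 gave -0.44 and -0.42 in H460C and -0.08 and -0.39 in H460R. Neither passed between the populations (adjusted p 0.256 and 0.189, limma).

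**Figure D2:**
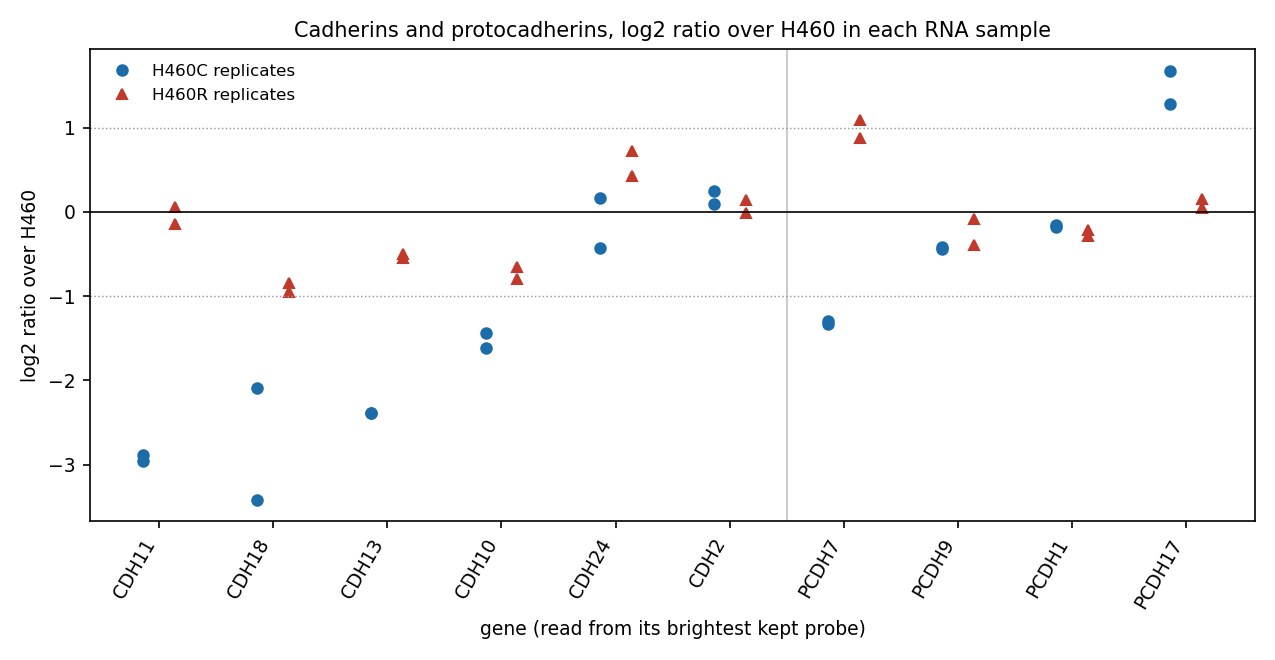
Log2 ratios over H460 (vertical axis) of the measured cadherins and protocadherins, with 1 point per RNA sample, circles for H460C and triangles for H460R, and dotted lines at 2-fold. CDH11, CDH13 and CDH18 lie at -2.09 or below in both H460C samples, and no H460R sample of these genes lies below -1.

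**Figure D3:**
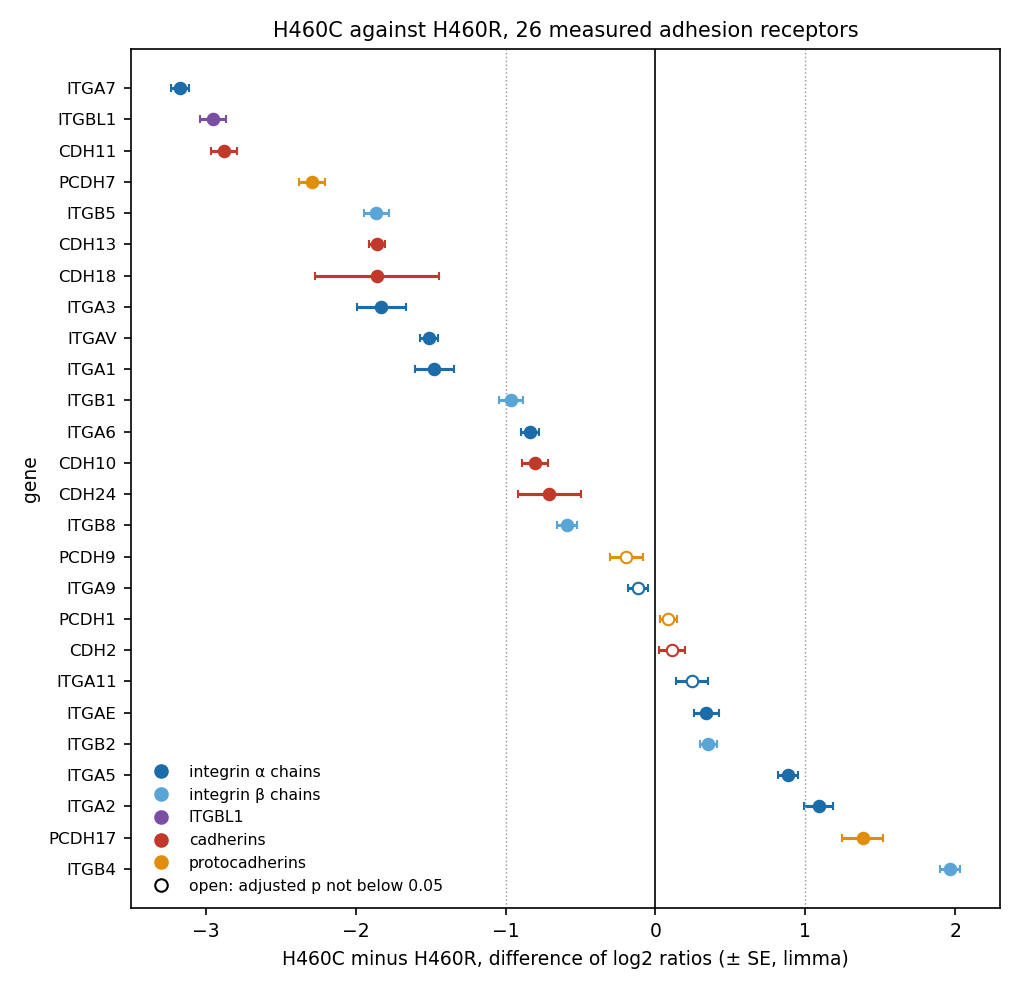
Difference of log2 ratios between H460C and H460R (horizontal axis, ± SE from limma) for the 26 measured members, ordered by size and coloured by family, with open points where the adjusted p was not below 0.05. ITGA7 (-3.17), ITGBL1 (-2.95) and CDH11 (-2.88) stand at one end and ITGB4 (1.97) at the other.

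The remaining 14 members were too dim to compare. ITGA4, ITGA8, ITGA10, ITGB3, ITGB6, CDH4, CDH17, PCDH10 and PCDH18 (9 genes) were not well above background in any array channel. CDH3, CDH5, CDH6, CDH12 and PCDH19 (5 genes) were above it on at most 2 of the 4 arrays of a population. Among them are ITGB3 and ITGB6, further partners of ITGAV, ITGA4, a leukocyte chain, and CDH5, the cadherin of endothelium. No fold is given for these genes.

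Spread was small for most members. The SD between the H460R samples ranged from 0.00278 (ITGA6) to 0.218 (PCDH9), with a median of 0.0837. The dye orientations gave means of opposite sign for 4 members in H460C (ITGA9, ITGB2, ITGB8 and CDH24) and for 6 in H460R (ITGA3, ITGA9, ITGA11, ITGB5, CDH11 and CDH24).

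**Figure D4:**
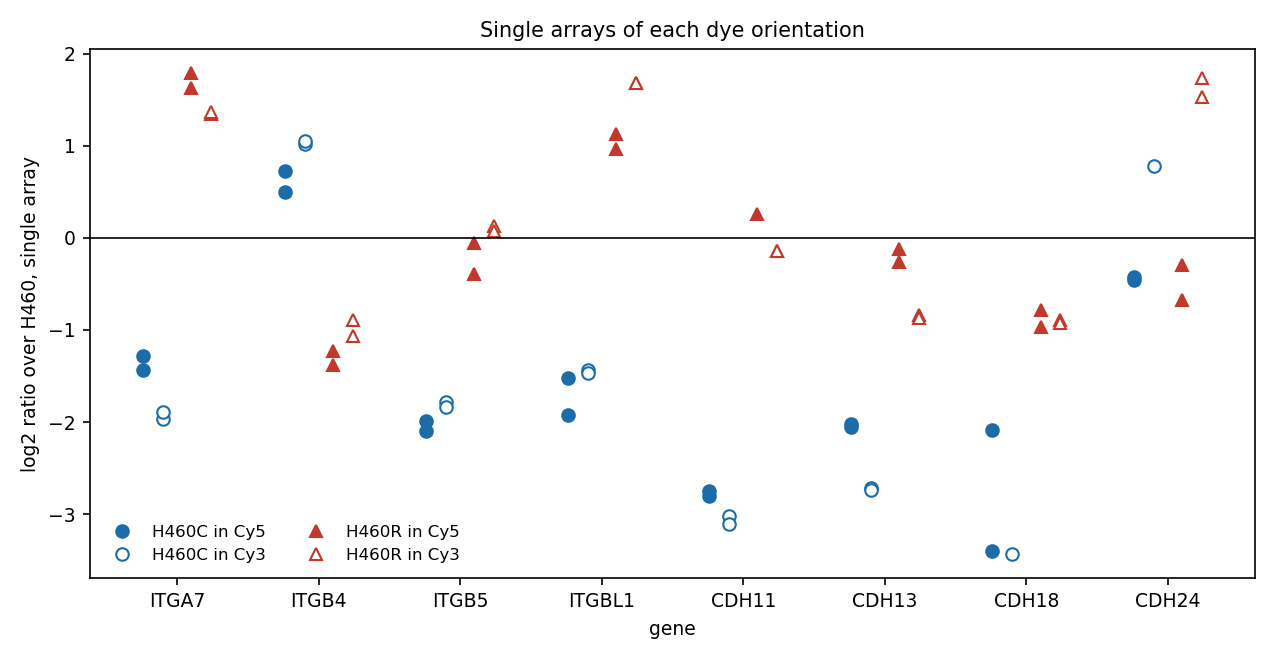
Log2 ratios over H460 on single arrays (vertical axis) for 8 members, with filled symbols for the studied cells in Cy5 and open symbols for Cy3, circles for H460C and triangles for H460R. The orientations of CDH24 lie on opposite sides of 0 in both populations, CDH18 has one H460C array at -2.09 apart from the others at -3.40 and -3.43, and ITGA7, ITGB4 and ITGBL1 keep their sign on every array.

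Proteins inside the cell that connect integrins to actin were next compared, from a list of 25 adaptors and focal adhesion genes of which 24 were measured. In H460C, 1 was called higher by Rank Products and none lower, and in H460R none was called. Of all genes, 0.556% were called higher and 0.502% lower in H460C, and 0.492% and 0.477% in H460R. At an unadjusted p below 0.05, Rank Products gave 3 adaptors higher and 5 lower in H460C, and 1 higher and 2 lower in H460R. Of all 20317 genes, it gave 1926 higher and 1967 lower in H460C and 1901 and 1870 in H460R. By limma 6 adaptors were higher and 9 lower in H460C, and 9 higher and 7 lower in H460R. Limma called 71% of all genes in H460C and 68.9% in H460R. The median was -0.0054 in H460C and 0.0094 in H460R, beside -0.0011 and 0.01 over all genes. Between the populations 7 were higher and 6 lower in H460C by limma, which called 28.0% of all genes higher and 27.9% lower. The called gene was TNS4, a tensin without the actin-binding region of its relatives, at 2.65 and 3.11 in H460C (FDR 0.0178, Rank Products) and 0.00258 and 0.005 in H460R. TNS4 in H460 was well above background on 3 of 4 H460C arrays and on none of the H460R arrays. H460R itself was above it on 2 of 4 arrays, so its TNS4 ratios compare signals near background. TNS4 passed the filter only through H460C, the population where it was called higher. TNS3, an actin-binding tensin of focal adhesions, had the opposite order, with -1.42 and -1.59 in H460C and 0.54 and 0.66 in H460R (difference -2.10, SE 0.08, adjusted p 9.47e-05, limma). A second, dimmer TNS3 probe gave -0.07 and -0.38 in H460C and 0.46 and 0.51 in H460R (difference -0.71, adjusted p 0.0039, limma). The H460R ratio of that probe depended on the dye, at 0.95 and 1.07 with H460R in Cy3 and -0.03 and -0.04 in Cy5.

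PARVA, which joins ITGB1 complexes to actin, gave -0.98 and -1.06 in H460C and 0.14 and 0.13 in H460R (difference -1.15). FERMT1, a kindlin of epithelia that activates integrins, gave 0.98 and 1.07 in H460C and 0.23 and 0.33 in H460R (difference 0.74). Neither ratio to H460 passed Rank Products for either gene, and both differences passed limma (adjusted p 0.000167 and 0.000721). PTK2 and ILK, which act in signalling from integrins, differed by -0.06 and -3.83e-05 between the populations and did not pass (adjusted p 0.442 and 0.9995, limma).

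The catenins and other partners of cadherins were read from a list of 14 genes, of which 13 were on the array and 10 were measured. None was called in H460C by Rank Products, with 1 higher and 3 lower at an unadjusted p below 0.05 and 2 higher and 7 lower by limma. In H460C, 1926 and 1967 of all 20317 genes were higher and lower at that unadjusted p, and limma called 71%. In H460R, 1 was called lower by Rank Products, where 0.477% of all genes were. At an unadjusted p below 0.05 it gave 1 higher and 2 lower in H460R, where 1901 and 1870 of all genes were. By limma 3 were higher and 5 lower in H460R, where 68.9% of all genes were called. Between the populations limma gave 3 higher and 4 lower in H460C, beside 28.0% and 27.9% of all genes. The median of the 10 genes was -0.29 in H460C and -0.09 in H460R. The gene called by Rank Products was CTNND2, the delta-catenin of neurons. It gave -1.53 and -1.62 in H460C (FDR 0.0919, Rank Products) and -1.94 and -2.07 in H460R (FDR 0.00406, Rank Products). A second CTNND2 probe was also called in H460R (FDR 0.00801) and did not pass between the populations (adjusted p 0.124, limma), whereas the first did (difference 0.43, adjusted p 0.00532). The desmosome genes did not move together. JUP, plakoglobin, gave -1.22 and -1.32 in H460C and 0.45 in both H460R samples. The JUP ratio in H460R depended on the dye, at 0.88 and 0.93 with H460R in Cy3 and 0.02 and -0.03 in Cy5. PKP2 gave -0.22 and -0.32 in H460C and 0.88 and 0.98 in H460R. PKP3 gave 0.72 and 0.71 in H460C and -0.26 and -0.24 in H460R. These genes differed by -1.72, -1.20 and 0.96 between the populations (adjusted p 7.92e-05, 0.000218 and 0.000198, limma).

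Of 17 genes for integrin ligands, 16 were on the array and 13 were measured. Rank Products called none in either population. At an unadjusted p below 0.05 it gave 3 higher and 5 lower in H460C and 4 higher in H460R, and limma gave 5 higher and 6 lower in H460C and 7 higher and 4 lower in H460R. The shares of all genes at these thresholds are those given with the adaptors. Between the populations, where limma called 28.0% of all genes higher and 27.9% lower, 4 ligands were higher and 8 lower in H460C. One of the 8 was SPP1, which was saturated on every H460C and H460R array, so that no fold is given. Their median was 0.02 in H460C and 0.24 in H460R. The largest differences were within the laminins, the ligands of ITGA3, ITGA6 and ITGA7. LAMC1, the gamma chain of most laminins, gave -1.18 and -1.16 in H460C and 1.09 and 1.12 in H460R (difference -2.28, SE 0.05, adjusted p 6.29e-05, limma). LAMA1 gave -1.69 and -1.81 in H460C and 0.43 and 0.32 in H460R (difference -2.13), and the means of its 4 kept probes had the same signs. The sign in H460R turned with the dye, however. The probe read gave 0.87 and 0.89 with H460R in Cy3 and -0.007 and -0.25 in Cy5. Another LAMA1 probe gave 0.77 and 0.68 in Cy3 and -0.40 and -0.39 in Cy5.

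LAMB3, a laminin beta chain, had the opposite order. LAMA3, a laminin alpha chain, did not, with -0.59 and -0.77 in H460C and 0.17 and 0.32 in H460R (difference -0.92, SE 0.09, adjusted p 0.000883, limma). LAMB3 gave 1.35 in both H460C samples and -0.30 and -0.31 in H460R (difference 1.66, SE 0.05, adjusted p 7.06e-05, limma). COL4A1, a chain of basement membrane collagen, gave 0.90 and 1.27 in H460C and -0.10 and -0.06 in H460R (difference 1.16, SE 0.13, adjusted p 0.00124, limma). LAMA3, SPP1, PTK2 and ILK were named after their values were seen.

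**Figure D5:**
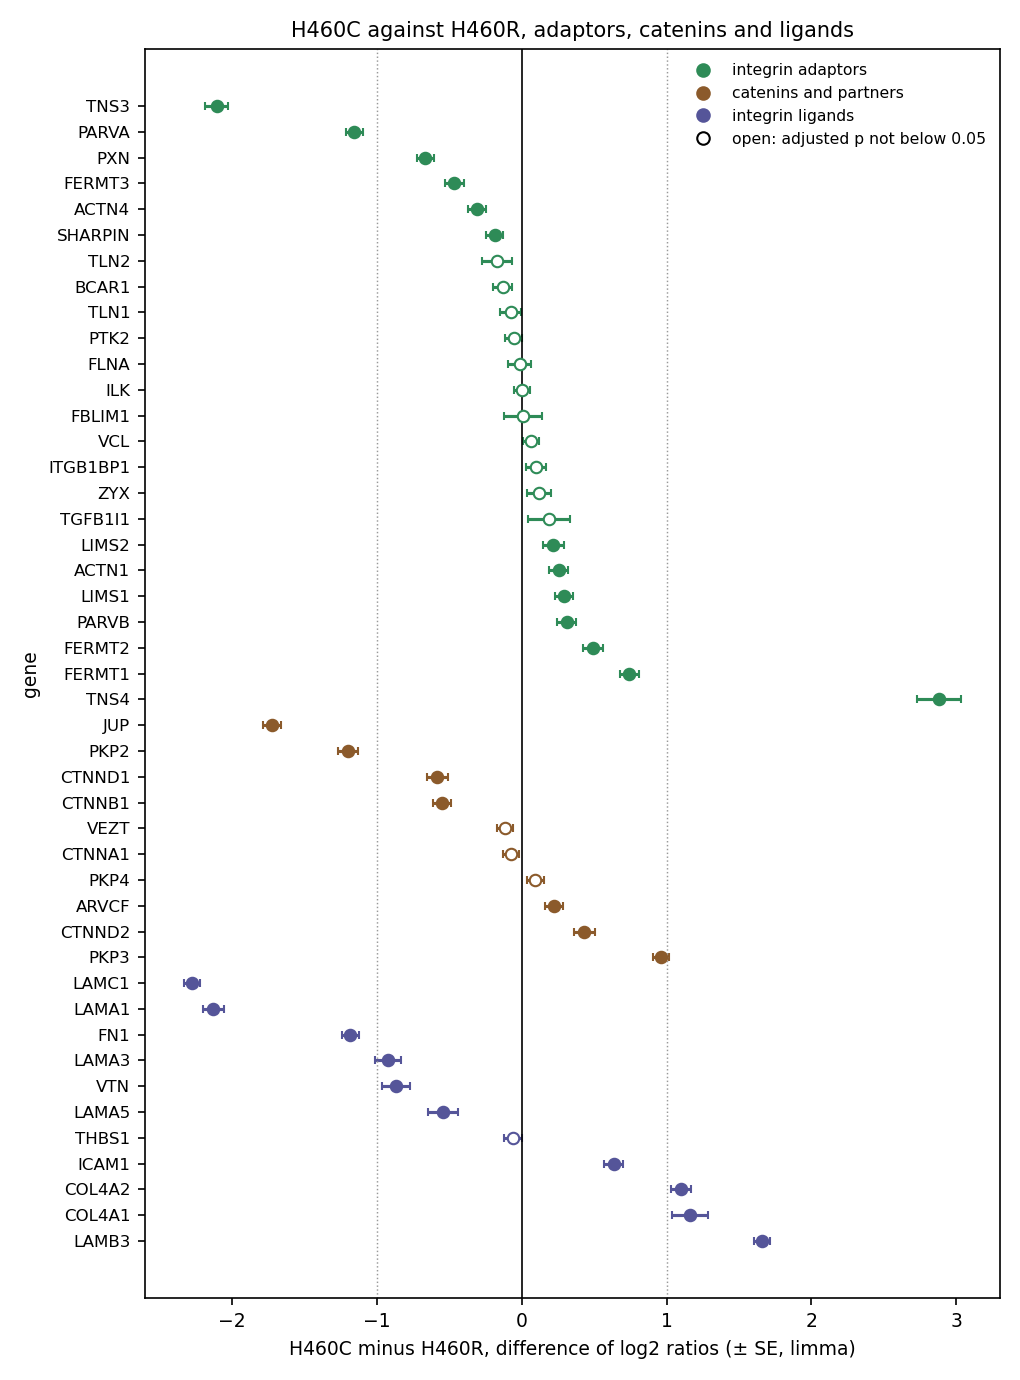
Difference of log2 ratios between H460C and H460R (horizontal axis, ± SE from limma) for measured integrin adaptors, catenins and partners, and integrin ligands, with open points where the adjusted p was not below 0.05 and without SPP1, which was saturated. TNS4 (2.88) and LAMB3 (1.66) stand to the right, and LAMC1 (-2.28), LAMA1 (-2.13), TNS3 (-2.10) and JUP (-1.72) to the left.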

How the data were processed

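Total RNA was extracted with Trizol and hybridized by the authors to two-color Agilent arrays with dye swaps. The authors extracted the spots with Feature Extraction 10.1.1.1. The start here was the deposited median intensity of spot and local background, on a linear scale without normalization. The deposited log10 ratio (red over green), background-subtracted and dye-normalized by that software, was an alternative. In 1 array (H460C replicate 1, H460C in Cy3) the deposited ratio had lost its decimal point and is a score, which was divided by 10 to the power of 9. Another alternative was the authors' processed log2 ratios, studied cells over H460, for which the submitters' processing notes name limma. Their background correction and normalization are not given in the sources used here. They correlated with the ratios made here with r from 0.946 to 0.997 across the probes of each array, and their column medians were -0.02 to 0. Marks for outliers, saturation and signal above background were used as deposited. All columns used belonged to a known sample.

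Background was corrected with normexp (offset 50). Control spots (1639 of them) were left out, outlier spots counted as missing, and loess was run within arrays (limma 3.58.1 and R 4.3.3, with the data.table package). The ratios of a dye-swapped pair of arrays were averaged, or read from the remaining array where a spot was missing. Of 41000 probes, 26046 had at least a share of 0.5 of their spots well above background on every array of H460C, of H460R or of H460, and 26014 of them could be tested. How precise a value is depends on the number of arrays. Of 25074 probes with RefSeq accessions, 23958 matched a symbol in the RefSeq table of GRCh38.p14. A gene was read from its brightest kept probe, and other probes are given where their call or sign differs.

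Each population was tested against H460 with Rank Products (exact distribution of the product of ranks, Benjamini-Hochberg over all probes, FDR 0.05). Since 1 H460 RNA was used, its own spread does not enter these tests. The 4 ratios of H460C and H460R were compared by limma (lmFit and eBayes, two-sided, Benjamini-Hochberg over all probes, 2 residual and 3.24 prior degrees of freedom). The tests were tried on simulated data. Where a group was not well above background on any array, a fold is a lower bound: the brighter mean against the mean over arrays of the dim probe's signal or, if higher, the lowest one well above background. These are channel values after loess and Aquantile and are open to dye bias. Alternatives were other background corrections and normalizations, the authors' ratios, other filters, single dye orientations, the mean over probes, limma in place of Rank Products, a minimum log2 ratio of 1 in limma, averaged H460C samples, a replicate block and leaving out each sample. Taking only probes measured on all 8 arrays was chosen after seeing the data. All 40 members are named. From the lists of adaptors, catenins and ligands, the genes called by Rank Products and the 2 highest and 2 lowest differences are named. One gene counted in the list of ligands and one cell type marker are not reported here by name or value. The members and the lists were chosen with earlier results of these data known.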

Additional observations from a re-analysis of the deposited data

How the results depend on the processing

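The 3 members called lower in H460C became 1 with the Feature Extraction log ratio, where CDH11 and CDH13 had FDR 0.0577 and 0.0862 (from 0.00466 and 0.0122 upwards over the other Rank Products alternatives). Calls in either direction in H460C, also 3, became 1 with the Feature Extraction log ratio and 23 with limma (16 lower). They were 10 with limma and a minimum log2 ratio of 1 (8 lower), and 2 to 4 under the others. The 0 calls in H460R became 1 on the Cy5 arrays (ITGA7), 1 with the Feature Extraction log ratio (ITGB2), 20 with limma and 1 with limma and the minimum ratio, and stayed at 0 under the others. Members past 2-fold in H460R numbered 3, but 5 on the Cy5 arrays, 6 with the Feature Extraction log ratio and 6 with a normexp offset of 0. The 21 members that differed between H460C and H460R became 8 with the minimum ratio, and numbered 17 to 23 under the others. With the replicate block they were 22, ITGA11 being added (adjusted p 0.0302, limma). Replicate numbers were shared between the populations without a stated link (r = 0.207 across probes for samples of the same number, 2 pairs). Leaving out one sample gave 19 to 22, and CDH18 and CDH24 no longer passed without H460R replicate 1 or without H460R replicate 2. Rank Products was not run with a sample left out, since it was set up for 2 ratios. The CDH24 difference of -0.71 reversed to 0.040 on the Cy5 arrays. CDH18 in H460C was -2.75, and -4.91 with the Feature Extraction log ratio, where its difference between the populations was -3.80 in place of -1.86. That ratio also moved the differences of ITGA1 from -1.47 to -2.83 and of PCDH17 from 1.38 to 2.21. The CDH18 difference was -1.19 and the CDH24 difference -0.41 without H460C replicate 2. The mean over probes moved ITGA2 from 1.09 to 0.62, ITGAV from -1.51 to -0.98 and ITGB8 from -0.59 to -0.31, and ITGA5 was 1.38 on the Cy3 and 0.39 on the Cy5 arrays. Over all genes, the 11364 that differed between the populations became 6256 with median centring, 6771 on the Cy5 arrays and 688 with the minimum ratio. The 215 and 197 genes called by Rank Products in H460C and H460R were 14425 and 14008 with limma, and 854 in H460C with the minimum ratio. The 1694 and 1009 genes past 2-fold were 3683 and 2679 with the Feature Extraction log ratio, and in H460R 1714 with a normexp offset of 0 and 1569 on the Cy3 arrays. The 1632 past 2-fold between the populations were 3419 with the Feature Extraction log ratio. The cause of these changes was not tested. Signals near background limit ITGB2, CDH2 and CDH18.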
